A study of Mus musculus with 64 samples.

Results

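The genes described are 10 mouse genes that mark blood stem cells at the cell surface or are shared by blood stem cells and endothelium: Procr, Slamf1, Cd48, Robo4, Esam, Tek, Fgd5, Pecam1, Cdh5 and Pdgfra. They were chosen by name and found by Ensembl identifier through GENCODE M21, and all 10 were among the 38924 genes listed in LSK cells, the stem and progenitor fraction of the series. RNA of 64 libraries from sorted fetal liver progenitors was sequenced to ask how loss of Smarcd2, which encodes a subunit of the BAF chromatin remodelling complex, changes their transcripts. C57BL/6 fetuses were Smarcd2 -/- (KO), Smarcd2 +/- (HET) or WT, of both sexes where given (LSK only), aged 13 to 14 days post coitum, except 1 CMP HET library labelled 14.5 days. LSK cells (9 KO, 9 HET and 5 WT libraries) were sorted as CD45.2 positive, lineage negative, Sca-1 and c-Kit positive cells with positive or low Mac-1. CMP (4 KO, 7 HET, 3 WT), GMP (3 KO, 7 HET, 3 WT) and MEP (4 KO, 7 HET, 3 WT) were lineage and Sca-1 negative cells split by CD34, which was low in MEP, and by the Fc receptor CD16/32, which was intermediate in CMP, high in GMP and low in MEP. Their gate labels name CD177 where the stain listed is CD117 (c-Kit). The kind of knockout allele is not given in the sources used here, and the labels do not say which libraries came from separate fetuses, so p-values measure the spread between these libraries, which may be technical.

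The surface of a mouse blood stem cell is read with a few antibodies: the protein C receptor (Procr) and the self-binding receptor SLAM, also called CD150 (Slamf1), mark it, whereas CD48 appears as cells leave the stem cell state. Blood stem cells arise from endothelium, and in the fetal liver they still carry proteins that also hold vessel walls together or sense vascular signals, among them VE-cadherin (Cdh5), ESAM, CD31 (Pecam1), TIE2 (Tek) and ROBO4. Fgd5, an exchange factor for the small GTPase Cdc42, is expressed in mouse endothelium and stem cells, and Pdgfra, a receptor for platelet-derived growth factor, is best known from stromal cells.

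On GRCm38 the members lie on 8 chromosomes, and 2 pairs lie close together. Cd48 (chr1:171682009-171705258) and Slamf1 (chr1:171767127-171801184) are separated by 61868 bases, with the processed pseudogene Tma7-ps between them. Robo4 (chr9:37401897-37415115) and Esam (chr9:37528078-37538319) are separated by 112962 bases, with Msantd2 between them (log2 fold change 0.06 in LSK KO against WT, not called). Tma7-ps fell in LSK KO against WT by 0.43 on the log2 scale (edgeR adjusted p = 0.0155) and against HET by 0.33 (adjusted p = 0.0432), and its reads cannot be told apart with certainty from those of its parent gene. Pecam1 (chr11:106654217-106750628, minus strand) lies 381244 bases from Smarcd2 (chr11:106263179-106272972). Procr is on chromosome 2, Tek on 4, Pdgfra on 5, Fgd5 on 6 and Cdh5 on 8. RefSeq promoters (GRCm38.p6, 250 bases before to 50 after the start) matched 7 of the 10 members, and Esam, Pecam1 and Cdh5 had no entry. The promoters of 3 matched members, Robo4, Pdgfra and Slamf1, are printed 5′ to 3′ on the plus strand, and those of the other matched members are not. Capitals stand where the ETS core GGAAG, or its reverse complement CTTCC, was found.
Robo4 chr9:37401722-37402021: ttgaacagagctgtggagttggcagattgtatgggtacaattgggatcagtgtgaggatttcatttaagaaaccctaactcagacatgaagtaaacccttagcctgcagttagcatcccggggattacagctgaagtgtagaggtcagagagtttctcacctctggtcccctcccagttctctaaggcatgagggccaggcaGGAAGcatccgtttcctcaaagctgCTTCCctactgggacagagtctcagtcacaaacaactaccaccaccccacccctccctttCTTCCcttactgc
Pdgfra chr5:75152001-75152300: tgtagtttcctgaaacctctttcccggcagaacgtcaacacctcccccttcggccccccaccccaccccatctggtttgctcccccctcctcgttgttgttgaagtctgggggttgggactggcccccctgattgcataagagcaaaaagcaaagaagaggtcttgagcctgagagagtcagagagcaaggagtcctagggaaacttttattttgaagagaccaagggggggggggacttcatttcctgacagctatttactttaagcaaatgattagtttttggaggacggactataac
Slamf1 chr1:171766882-171767181: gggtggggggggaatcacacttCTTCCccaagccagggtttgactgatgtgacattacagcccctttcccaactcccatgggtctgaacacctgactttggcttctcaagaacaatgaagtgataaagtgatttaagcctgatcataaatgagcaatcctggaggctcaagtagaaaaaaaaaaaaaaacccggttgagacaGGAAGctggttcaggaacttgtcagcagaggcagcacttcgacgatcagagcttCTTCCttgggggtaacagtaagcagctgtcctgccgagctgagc
The ETS core, the letters bound by the family that includes Erg, had 3 matches in Robo4, 3 in Slamf1 and 0 in Pdgfra, none overlapping another. This core stands in 71.4% of the 32851 promoters of this length, so a match is common. The GATA site AGATAA, searched on both strands, is in 11.2% of all promoters and in none of these 3; among the matched members it was found in Tek alone, with 1 match.

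Libraries held 4327582 to 24069833 gene reads in LSK, 1577073 to 8092644 in CMP, 1006090 to 6300070 in GMP and 1488328 to 5646315 in MEP. Smarcd2 averaged 1.28 ± 0.411 CPM in KO, 33.7 ± 14.1 CPM in HET and 55.9 ± 8.54 CPM in WT LSK (CPM are counts scaled to library size; SD, n = 9, 9 and 5), and no KO library of any population exceeded 1.94 CPM. By group means the sorted populations carried their markers. Kit averaged 780 CPM in KO, 645 in HET and 621 in WT LSK, and Ly6a, which encodes Sca-1, 26.7 CPM in KO, 20.7 in HET and 19.58 in WT LSK. Fcgr3, which encodes part of the Fc receptor stain, averaged 635 CPM in KO, 623 in HET and 953 in WT GMP, but the granule gene Elane averaged 170 CPM in KO, 2200 in HET and 2820 in WT GMP. Epor, the erythropoietin receptor, averaged 54.9 CPM in KO, 50.2 in HET and 37.0 in WT MEP. Some libraries stood apart. In GMP HET 8 the endothelial list summed to 848 CPM, against 44.3 to 74.4 CPM in the other GMP HET libraries, and all 10 members had reads there, including 24 of the 25 Pdgfra reads of GMP HET. That library also had the lowest GMP HET values of Mpo (523 CPM on 179 reads), Elane (29.2 on 10) and Fcgr3 (52.6 on 18). The GMP HET medians were 9479, 1103 and 558 CPM, so it stood far below its group in these GMP markers. TMM scaling raised its CPM: mean Pdgfra in GMP HET was 10.1 CPM, or 2.90 CPM without TMM factors. CMP HET 8 (endothelial sum 395 CPM), GMP KO 6 (246 CPM), GMP WT 5 (megakaryocyte sum 571 CPM) and MEP KO 15 (1343 CPM) also stood above their groups in these sums. Some results are also given without such libraries, but member values of MEP KO against WT are not given without MEP KO 15. MEP WT 5 had the highest WT sums of hepatocyte (4476 CPM), erythroid, lymphoid, macrophage, stromal and endothelial genes in MEP. Synthetic spike-in RNA took 2.76% of reads in GMP KO, 0.175% in HET and 0.178% in WT. It was at least 2.52% in each GMP KO library and at most 0.394% in each other GMP library, so this share and KO nearly coincide in GMP.

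**Figure D1:**
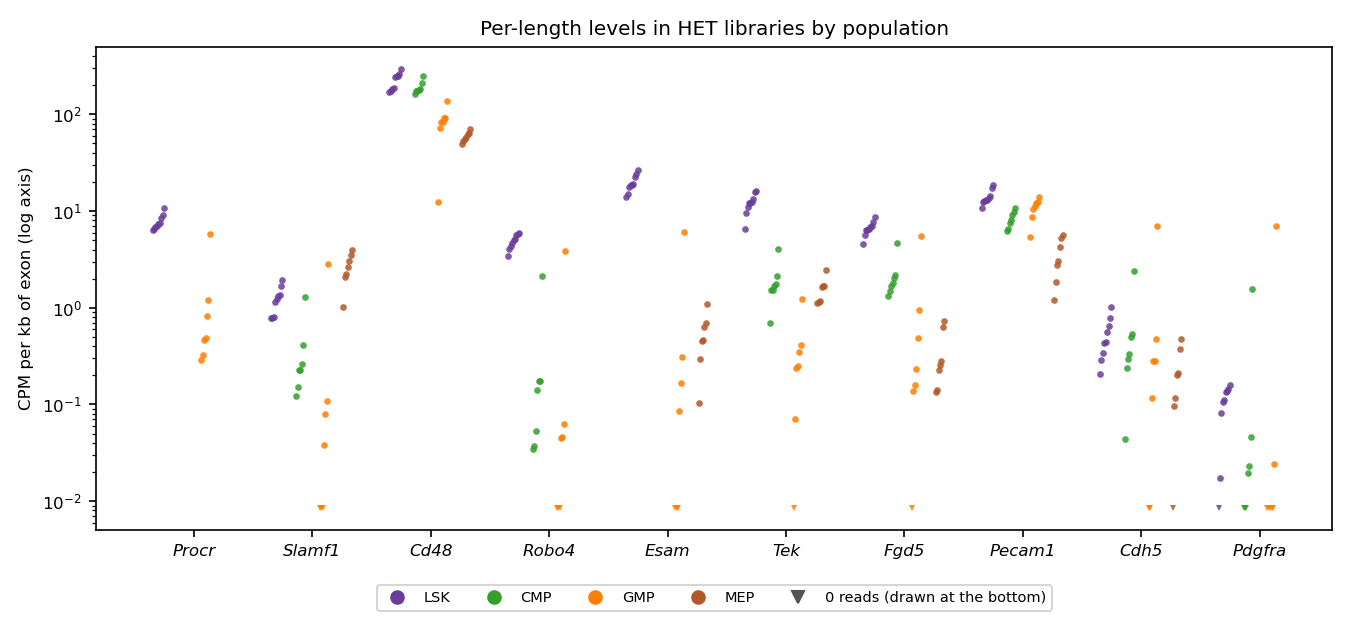
Level of each member in HET libraries, in CPM per kilobase of annotated exon on a log axis; 1 point is 1 library, colours mark the 4 populations, triangles mark 0 reads, and a missing colour means the gene was not listed there. Cd48 stood highest in every population, and the highest CMP and GMP points of the low genes are mostly libraries numbered 8.

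Per kilobase of exon, the members spanned a wide range in LSK, and their order was the same in KO, HET and WT. Cd48 led with a mean level of 280 CPM per kb in KO, 224 in HET and 230 in WT. Esam followed with 24.8 in KO, 19.52 in HET and 17.9 in WT, ahead of Pecam1 with 19.7, 14.0 and 12.0 CPM per kb in the same groups. Tek, Procr and Fgd5 came next, at 12.4, 5.74 and 5.57 CPM per kb in KO. Robo4 stood at 5.23 CPM per kb in KO, 4.89 in HET and 3.19 in WT. Slamf1 (1.47 in KO, 1.22 in HET, 1.23 in WT) and Cdh5 (0.639, 0.525 and 0.559) were low, and Pdgfra was lowest at 0.129 in KO, 0.0992 in HET and 0.0273 in WT. Procr and Fgd5, neighbours in this order, differed by less than the larger of their SDs in each genotype. The same held for Esam and Pecam1 and for Fgd5 and Robo4 in KO alone, and for Pecam1 (14.0 ± 2.52 CPM per kb) and Tek (12.1 ± 2.95) in HET alone. All other neighbours in the order differed by more than that. Of the 10 members, 8 were listed in CMP, 10 in GMP and 7 in MEP; Procr and Esam were not listed in CMP, and Procr, Robo4 and Pdgfra not in MEP.

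In LSK cells without Smarcd2, Robo4 and Pecam1 rose relative to WT and no member fell. Pdgfra was also called as higher, but it passed the filter on low counts through its KO and HET libraries, where it is high. That choice bears on its call, which is given apart. All 10 members passed that filter. Over all 13878 genes tested by edgeR's quasi-likelihood test with Benjamini-Hochberg adjustment at 0.05, 18.8% were called, so a count of 3 among 10 members, Pdgfra included, is near the background. The median log2 fold change of the members was 0.29, against 0.01 for all genes. In bulk libraries, fewer cells of a type and less RNA per cell cannot be told apart.

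Pecam1 encodes CD31, an adhesion receptor of endothelium, platelets and leukocytes that binds itself on neighbouring cells. Its level in LSK KO was 93.8 CPM at the lowest, 128 at the median and 143 at the highest, and HET libraries ran from 66.5 over a median of 82.0 to 117 CPM. The 5 WT libraries, of series 19, 21, 21, 22 and 24, had 86.3, 81.7, 74.8, 60.45 and 71.15 CPM. Every KO library stood above every WT library, while HET overlapped both; KO and WT did not overlap for this 1 member of 10, and for 6.77% of all genes. The log2 fold change was 0.71 ± 0.12 (SE) for KO against WT (edgeR adjusted p = 0.000336), and 0.49 ± 0.10 for KO against HET (adjusted p = 0.00252). HET against WT gave 0.22 ± 0.12 (adjusted p = 0.510). Within the 4 series of library titles that hold both genotypes, KO exceeded WT in all 4, by 0.64, 0.61, 1.07 and 0.76 on the log2 scale in series 19, 21, 22 and 24. Under 34 alternatives the KO against WT value ran from 0.54 to 0.77 and its adjusted p from 2.46e-06 to 0.00731.

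Pecam1 shares its chromosome with the targeted gene. Of 11 genes annotated between them, 6 were tested in LSK. Ern1, an endoplasmic reticulum stress sensor, rose by 0.48 ± 0.15 in KO against WT (edgeR adjusted p = 0.0254). Tcam1 fell by 1.59 on the log2 scale (adjusted p = 0.00146). Cd79b, Icam2, Tex2 and Snord104 had values between -0.26 and -0.08 and were not called. The part of the linked region in the Pecam1 difference was not tested.

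Robo4, a roundabout family receptor of endothelium that is also found on mouse blood stem cells, had 15.9, 27.8 and 38.0 CPM as the lowest, median and highest LSK KO values. HET libraries had 18.1, 26.7 and 31.6 CPM in the same order. The WT libraries had 18.46, 19.52, 14.69, 17.03 and 14.85 CPM. Of 9 KO libraries 8 exceeded the highest WT library, and the same held for 8 of 9 HET libraries, so both groups overlapped WT by 1 library each. KO against WT was 0.72 ± 0.17 (SE; edgeR adjusted p = 0.00508) and KO against HET 0.10 ± 0.14 (adjusted p = 0.703). HET against WT gave 0.61 ± 0.17, with an unadjusted p of 0.00145 that became 0.336 after adjustment over all genes. KO exceeded WT in all 4 title series, by 0.92, 0.49, 0.76 and 0.99 (log2), and the call held under 34 of 34 alternatives, with adjusted p-values of 0.00109 to 0.0471.

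Pdgfra was close to the detection limit, passed the count filter through its KO and HET libraries, and its call rests on few reads. It had 80 reads over 9 KO libraries (2 to 16 each), 93 over 9 HET libraries (0 to 26 each) and 7 over 5 WT libraries. The WT reads were 5, 1, 1, 0 and 0, so WT library 2 of series 19 held most of them. Mean levels were 1.30 ± 0.853 CPM in KO, 0.994 ± 0.565 in HET and 0.274 ± 0.413 in WT, and the groups overlapped. KO against WT was 2.20 ± 0.72 (SE; edgeR adjusted p = 0.0327), HET against WT 1.92 ± 0.73 (adjusted p = 0.388) and KO against HET 0.28 ± 0.44 (adjusted p = 0.743). The call was lost without any 1 of KO libraries 6 of series 19 and 5 of series 22, or WT libraries 1 and 5 of series 21, 8 of series 22 and 10 of series 24, with adjusted p-values of 0.0510 to 0.109 and log2 fold changes of 1.81 to 2.13. With spike-in share added to the model it was 2.20 (adjusted p = 0.0677), so 24 of 32 alternatives kept the call. Of 12 tested stromal markers 3 rose (Postn by 0.79, Tagln by 1.22 and Pdgfrb by 0.53) and none fell, where 18.8% of all genes were called. Cxcl12 (0.95), Col1a1 (-0.68) and Dcn (-0.30) were not called. The summed stromal level was 102 to 171 CPM in KO, 70.4 to 148 CPM in HET and 65.0 to 129 CPM in WT, and its part in the Pdgfra difference was not tested.

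**Figure D2:**
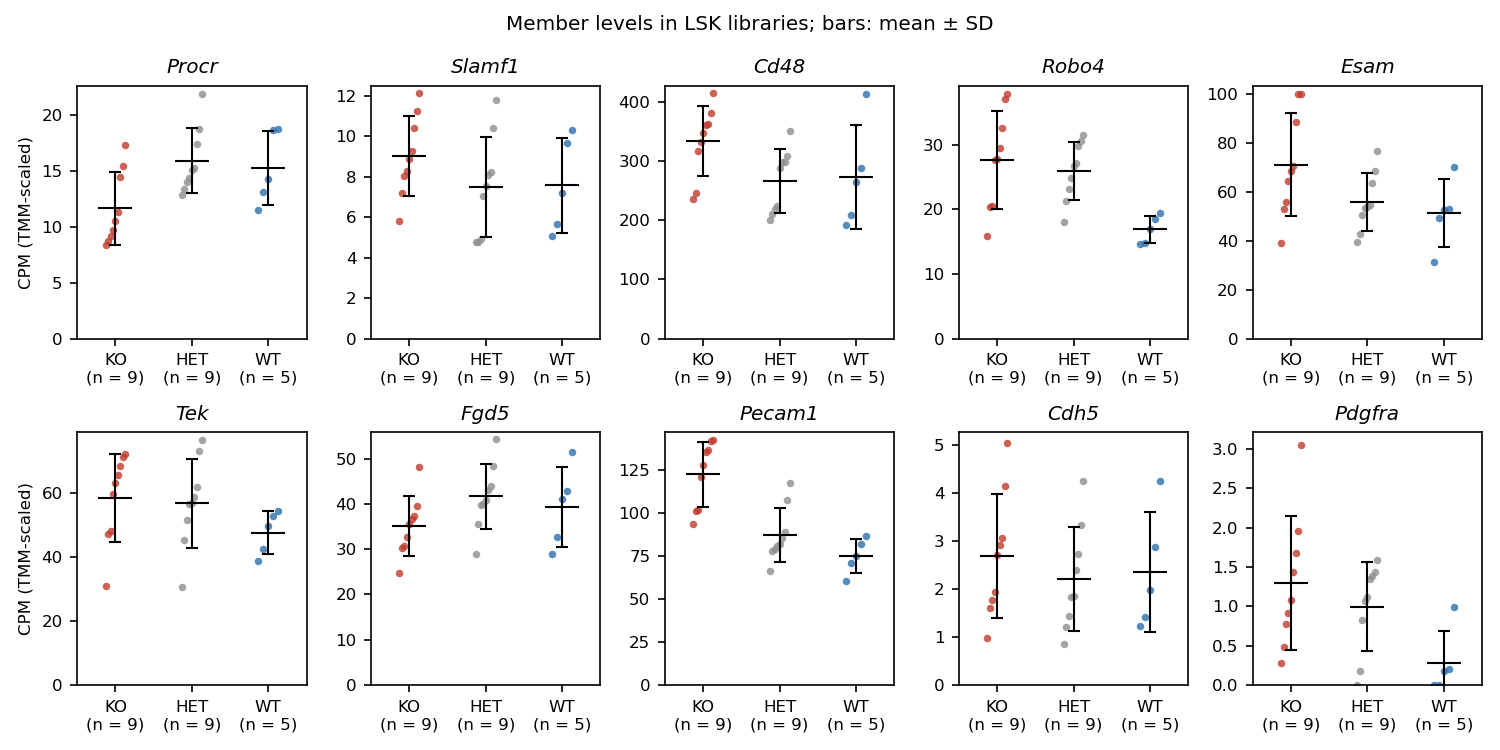
Level of each member in LSK libraries, in CPM of TMM-scaled libraries; 1 point is 1 library, bars show mean ± SD, and each panel has its own axis from 0. Pecam1 shows every KO point above every WT point, Robo4 shows KO and HET above WT but for 1 library each, and Pdgfra reaches 3.05 CPM at most.

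The other 7 members did not pass in LSK KO against WT. Procr averaged 11.7 ± 3.26 CPM in KO, 15.9 ± 2.92 in HET and 15.2 ± 3.29 in WT, and 6 of 9 KO libraries lay below every WT library. Its log2 fold change was -0.36 ± 0.18 (SE) against WT (edgeR adjusted p = 0.156) and -0.43 ± 0.15 against HET (adjusted p = 0.0572). It was below WT in each of 4 title series, by -0.23, -0.45, -0.20 and -1.10 (log2). Against HET it crossed the threshold under 7 of 34 alternatives, 5 of them leaving out 1 library: KO 5 or KO 6 of series 19, KO 2 of series 22, HET 1 of series 19 or HET 4 of series 20, with adjusted p-values of 0.0234 to 0.0487.

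Esam, a junction molecule of endothelium, platelets and stem cells, averaged 71.2 ± 21.24 CPM in KO, 56.0 ± 11.9 in HET and 51.3 ± 13.8 in WT. Its value was 0.47 ± 0.21 against WT (edgeR adjusted p = 0.116), and 0.55 with an adjusted p of 0.0420 without KO 3 of series 20. With the title series as a block it was 0.51 (adjusted p = 0.00833). Cd48, which encodes the ligand of the SLAM receptor CD244, averaged 333 ± 59.2 CPM in KO, 266 ± 53.6 in HET and 273 ± 87.8 in WT. WT library 10 of series 24 alone had 414 CPM, against 191 to 288 CPM in the other 4. The value was 0.29 ± 0.17 (adjusted p = 0.258) with it and 0.48 (adjusted p = 0.0369) without it, and -0.02 with spike-in share added to the model.

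Slamf1, Tek, Fgd5 and Cdh5 had log2 fold changes of 0.27, 0.29, -0.16 and 0.17 for KO against WT in LSK, with adjusted p-values of 0.288 to 0.797. The approximate 95% intervals, from normal quantiles, ran from -0.18 to 0.71 for Slamf1 and from -0.07 to 0.66 for Tek, the angiopoietin receptor. For Fgd5 the interval was -0.44 to 0.12, and for Cdh5, with 7 to 42 reads per KO library, it was -0.58 to 0.93. None of the 10 members passed in HET against WT, where 0.00721% of all genes were called, and DESeq2 and limma called 0 as well. An unadjusted p under 0.05 was found for 2 members, Robo4 and Pdgfra, as it was for 11% of all genes. Pdgfra passed the count filter through its KO and HET libraries, where it is high, and that choice bears on its p here. In KO against HET 1 of 10 was called, Pecam1, beside 11.1% of all genes.

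Related genes were read from lists, each described by its counts, to be read beside the 18.8% of all genes called in LSK KO against WT. Of 19 tested stem cell surface genes outside the members, 6 rose in LSK KO against WT and 1 fell, with a median of 0.33 against 0.01 for all genes. Flt3, the receptor of multipotent progenitors, rose by 0.54 ± 0.08 and the adhesion receptor Adgrg1 by 0.59 ± 0.10. Cd93, Kit and Ptprc rose by 0.33 to 0.37, and Ctnnal1, a catenin-like gene of mouse stem cells, was the 1 that fell, with -0.50 ± 0.11. Cd34 had -0.18 and Ly6a had 0.46, neither called.

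Ligands and partners of the members gave 3 rises and 0 falls among 15 tested. Thbd, which encodes thrombomodulin and works with the protein C receptor, rose by 0.63 ± 0.16, Pdgfa, a ligand of Pdgfra, by 0.89 ± 0.30, and Pdgfrb by 0.53 ± 0.19. Pdgfrb is also in the stromal list and was counted there. Angpt1, the ligand that activates TIE2, had 0.30 (edgeR adjusted p = 0.132), and Tie1, the sister receptor of Tek, had 0.05. The SLAM family list had 1 rise and 1 fall among 5 tested. Slamf6 rose by 1.73 ± 0.26, the adaptor gene Sh2d2a fell with -1.58 ± 0.37, and Cd244a, the receptor that binds CD48, had 0.71 (adjusted p = 0.0623).

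The endothelial list, which holds none of the members, had 1 rise and 1 fall among 18 tested genes in LSK KO against WT. The ETS factor Erg rose by 0.49 ± 0.17, Ramp2 fell with -0.71 ± 0.22, and Ecscr (0.47), Sox18 (-0.53), the VEGF receptor gene Kdr (0.51), Emcn (0.16) and Vwf (0.04) were not called. The summed level of this list was 366 to 982 CPM in KO, 416 to 807 CPM in HET and 432 to 612 CPM in WT, so the groups overlapped. The megakaryocyte sum was 611 to 846 CPM in KO, 555.3 to 725 CPM in HET and 458 to 618 CPM in WT, and 2 of its 10 tested genes rose, among them Plek by 0.72. Macrophage genes had 1 fall among 11 tested, Folr2 with -3.56, and the sum reached 1978 CPM in KO 2 of series 22, 1979 CPM in HET 6 of series 22 and 1351 CPM in WT 10 of series 24. Without those 3 libraries Pecam1 and Robo4 were still called, Pdgfra was not (1.93, edgeR adjusted p = 0.0866), and Cd48 was (0.54, adjusted p = 0.0135). Of 9 erythroid, 3 hepatocyte and 6 lymphoid genes tested, 1 was called, Il7r, which rose by 1.74. Their medians were -2.59, 0.99 and 0.41, against 0.01 for all genes. In KO against HET the erythroid median was -3.69 and 2 of the 9 fell, beside 11.1% of all genes called. The erythroid sum was 117 to 486 CPM in KO, 133 to 8293 CPM in HET and 109 to 1832 CPM in WT, so the groups overlapped.

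Across the 23 LSK libraries, with each genotype mean subtracted, Esam and Tek varied together (Pearson r = 0.727), followed by Tek and Pecam1 (0.655) and by Robo4 and its chromosomal neighbour Esam (0.604). The other gene most like both Esam (0.917) and Tek (0.845) was Fstl1, a secreted glycoprotein. Pirb, an inhibitory immune receptor, was most like Pecam1 (0.876), Plaur, the urokinase receptor, most like Robo4 (0.796), and Rgs18 most like Cd48 (0.919). Sparc, a matrix protein of stroma and endothelium, was most like Cdh5 (0.880). For Procr it was Pdzk1ip1 (0.718) and for Fgd5 Itpkb (0.808). These are descriptions over libraries that share depth and quality, and mt-Cytb, a mitochondrial transcript, was among the 3 genes most like Cd48 (0.914). Without subtracting genotype means, Fstl1, Plaur, Pdzk1ip1 and Itpkb were no longer among the 3 genes most like Esam, Robo4, Procr and Fgd5, which were then led by Neurl3 (0.885), Capg (0.807), Prex2 (0.788) and Kazn (0.824). Pirb, Sparc and, for Tek, Fstl1 still came first.

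In the progenitors below LSK no member passed in KO against WT. KO libraries 13 and 15 of CMP, GMP and MEP are of title series 34, which holds no WT or HET library. For these libraries KO and title series cannot be told apart. KO and WT libraries did not overlap for 2 of 5 tested members in CMP (Slamf1 and Fgd5), beside 16.5% of all genes, and for 4 of 5 in MEP (Slamf1, Fgd5, Tek and Pecam1), beside 10% of all genes. Counts passed the filter for 5 members in CMP, 3 in GMP and 5 in MEP. Slamf1 passed in CMP through its KO libraries, and Fgd5 passed in MEP through its HET and WT libraries, where each is high. That choice bears on every count here that includes them. In CMP 0 of 5 were called, beside 1.84% of all genes. An unadjusted p under 0.05 was found for 2 members and 12.9% of all genes, DESeq2 called 1 member and 4.62% of all genes, and limma voom 2 members and 6.24%. In MEP 0 of 5 were called, beside 0.00856% of all genes (1 of 11686). All 5 had an unadjusted p under 0.05, as did 6.92% of all genes; DESeq2 called 0, and limma voom called 4 members and 1.36% of all genes. In GMP 0 of 3 were called, beside 0.204%, none had an unadjusted p under 0.05, and DESeq2 and limma voom called 0.

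Slamf1 was higher in KO than in WT in both CMP and MEP libraries, without passing the test. In MEP the KO libraries 6, 11, 13 and 15 had 43.4, 44.3, 42.8 and 21.99 CPM, HET libraries 6.25 at the lowest, 16.1 at the median and 24.4 at the highest, and WT libraries 2, 5 and 12 had 17.3, 8.29 and 17.1 CPM; values below keep this order of libraries. All 4 KO libraries lay above all 3 WT libraries and 3 of 4 above every HET library. The exception was KO 15, which also had the highest megakaryocyte and endothelial sums of MEP KO. The log2 fold change was 1.42 ± 0.43 (SE) against WT (edgeR adjusted p = 0.368) and 1.22 ± 0.33 against HET (adjusted p = 0.260). KO exceeded WT in both title series that hold the 2 genotypes, by 1.76 and 1.37 on 1 KO library each, and without MEP WT 5 the value was 1.15.

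CMP KO libraries had 7.88, 4.24, 4.52 and 5.51 CPM of Slamf1, on 12 to 30 reads each. HET libraries had 0.746, 1.39 and 7.86 CPM as lowest, median and highest, and WT libraries had 2.33, 2.20 and 1.72 CPM. KO and WT did not overlap, and the 1 HET library among the KO values was HET 8. Slamf1 passed the count filter in CMP through its KO libraries, where it is high. That choice bears on the separation and on the tests given here. KO against WT was 1.38 ± 0.63 (SE; edgeR adjusted p = 0.363) and KO against HET 1.56 ± 0.51 (adjusted p = 0.143). Without HET 8 the KO against WT value was 1.35 and passed (adjusted p = 0.0451). The title series values were 1.80 and 1.30 on 1 KO library each, KO above WT in both.

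Beside these values, the megakaryocyte sum of MEP was 364 to 1343 CPM in KO, 169 to 421 CPM in HET and 236 to 349 CPM in WT. In CMP it was 472 to 569 CPM in KO, 214 to 465 CPM in HET and 273 to 385 CPM in WT. KO and WT did not overlap in either, and the median log2 fold change of that list was 1.19 in MEP and 0.19 in CMP, with 0 of 12 and 0 of 11 genes called. The part of megakaryocyte RNA in the Slamf1 values was not tested.

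Fgd5 was lower in KO than in WT in CMP, without passing the test. KO libraries had 5.45, 9.15, 5.27 and 3.49 CPM, HET libraries 8.35, 11.4 and 29.2 CPM as lowest, median and highest, and WT libraries 12.05, 14.9 and 17.2 CPM. All 4 KO libraries were below the 3 WT libraries, with KO 11 the highest of them and the only 1 within the HET range. KO against WT was -1.31 ± 0.36 (SE; edgeR adjusted p = 0.0726) and KO against HET -1.10 ± 0.31 (adjusted p = 0.0888). The value against WT passed without HET 8 (-1.31, adjusted p = 0.00858), without KO 11 (-1.65, adjusted p = 0.0399), by DESeq2 (adjusted p = 0.0103) and by limma voom (adjusted p = 0.00658). It was called under 7 of 23 alternatives, and was -1.06 (adjusted p = 0.461) with the title number as a block and -0.90 (adjusted p = 0.214) with spike-in share added. In MEP Fgd5 had 2.94, 0.814, 0 and 2.13 CPM in KO and 3.07, 8.66 and 3.69 CPM in WT. These rest on 19 reads over 4 KO, 44 over 7 HET and 42 over 3 WT libraries, with -1.87 ± 0.79 against WT (adjusted p = 0.685). Fgd5 passed the count filter in MEP through its HET and WT libraries, where it is higher, and that choice bears on this value. In GMP it had 48 reads in KO, 61 in HET and 32 in WT, with 0.16 ± 1.51 for KO against WT (adjusted p = 0.985), or 4.47 (adjusted p = 0.0736) with spike-in share added.

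**Figure D3:**
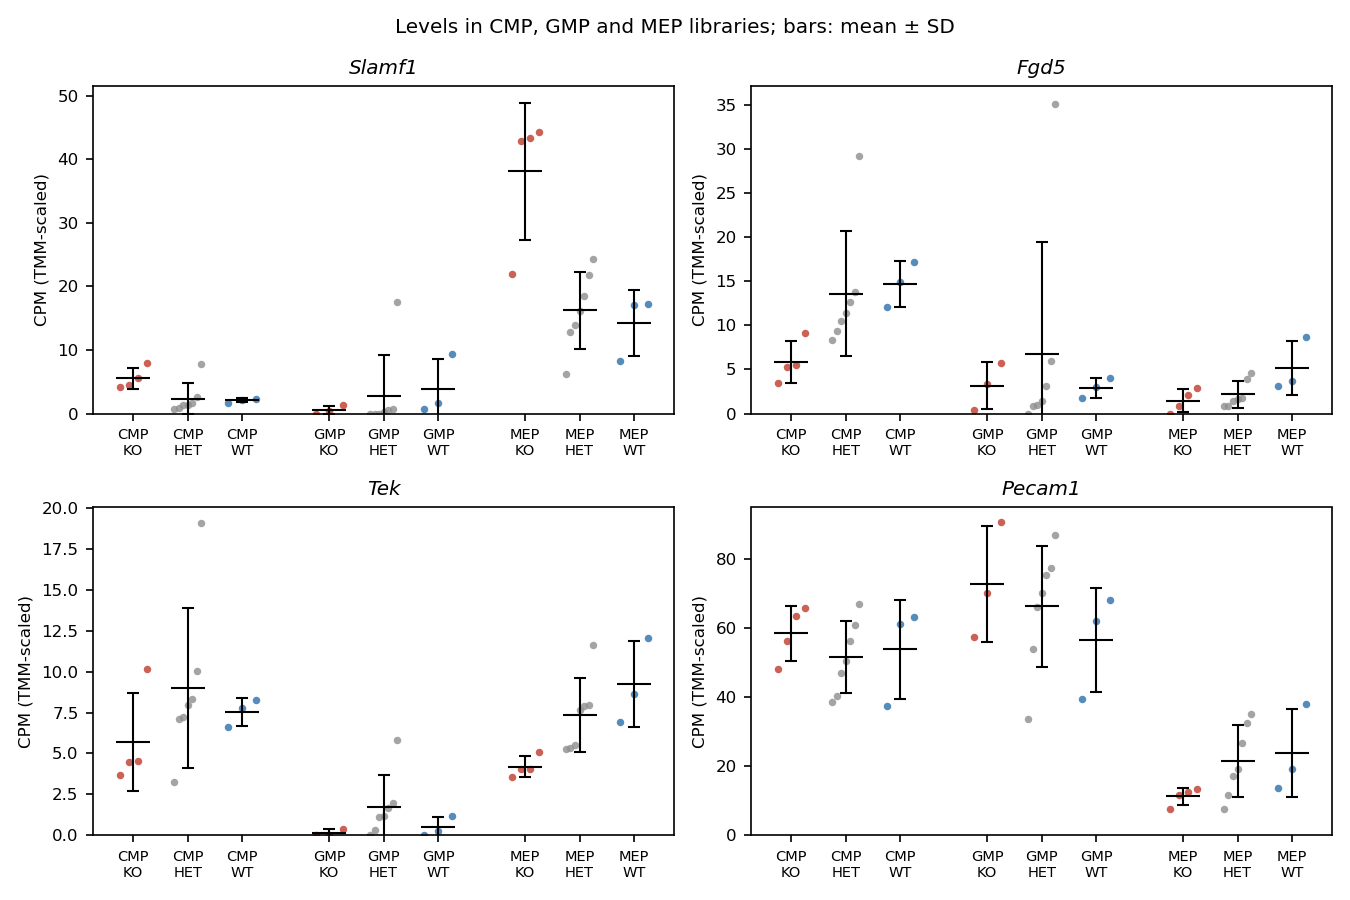
Levels of Slamf1, Fgd5, Tek and Pecam1 in CMP, GMP and MEP libraries, in CPM of TMM-scaled libraries, with KO, HET and WT side by side; 1 point is 1 library and bars show mean ± SD. Slamf1 shows all MEP KO points above all MEP WT points, and Fgd5 all CMP KO points below all CMP WT points; the far HET points of Slamf1 and Fgd5 in CMP and GMP are libraries numbered 8.

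Tek and Pecam1 also had lower values in MEP KO, without passing the test. Tek, on 10 to 25 reads per KO library, had 4.04, 4.07, 5.07 and 3.55 CPM in KO, 5.29, 7.64 and 11.6 CPM as lowest, median and highest in HET, and 6.91, 8.66 and 12.1 CPM in WT. All KO libraries lay below all HET and WT libraries. KO and WT did not overlap for 10% of all genes in MEP, and the share for KO and HET was not counted. KO against WT was -1.13 ± 0.35 (SE; edgeR adjusted p = 0.374) and KO against HET -0.82 ± 0.30 (adjusted p = 0.492). In CMP Tek had -0.45 ± 0.43 for KO against WT (adjusted p = 0.729), with a 95% interval of -1.29 to 0.39. Pecam1 had 13.2, 11.7, 7.60 and 12.4 CPM in KO, 7.44, 19.05 and 35.1 CPM in HET, and 19.18, 38.04 and 13.8 CPM in WT, with all KO libraries below all WT libraries. KO against WT was -1.07 ± 0.49 (adjusted p = 0.685). Without MEP WT 5, the library with the most Pecam1, Pecam1 was -0.55 and Tek -1.18, neither called. Cd48 was 105 ± 16.4 CPM in KO, 70.4 ± 8.82 in HET and 72.8 ± 12.7 in WT MEP, 0.53 ± 0.24 against WT (adjusted p = 0.685).

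The lymphoid, macrophage, hepatocyte and erythroid lists had negative medians in MEP KO against WT, with no gene called. The lymphoid sum was 78.6 to 264 CPM in KO, 192 to 1331 CPM in HET and 249 to 1416 CPM in WT, and the macrophage sum 6.998 to 23.1 CPM in KO, 5.36 to 55.7 CPM in HET and 12.4 to 170 CPM in WT. The hepatocyte sum was 24.6 to 648 CPM in KO, 32.3 to 4443 CPM in HET and 293 to 4476 CPM in WT, and the erythroid sum 866 to 4050 CPM in KO, 1449 to 20090 CPM in HET and 2433 to 18150 CPM in WT. KO and WT overlapped in each of these lists. Median log2 fold changes for KO against WT were -3.10 (lymphoid), -3.11 (macrophage), -2.60 (hepatocyte) and -2.10 (erythroid), against 0.06 for all genes, with 0 genes called among 9, 6, 11 and 9 tested. The endothelial and megakaryocyte lists went the other way, with medians of 0.27 and 1.19, and the stromal list had -0.62 over 2 tested genes. The endothelial sum was 158 to 374.5 CPM in KO, 145 to 369 CPM in HET and 123 to 204.5 CPM in WT. The part of any of these cells in the Tek and Pecam1 values was not tested.

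Cd48 and Pecam1 were the members with the most reads in CMP and GMP. Cd48 averaged 220 ± 14.0 CPM in KO, 226 ± 35.4 in HET and 224 ± 22.46 in WT CMP, with a 95% interval of -0.34 to 0.28 for KO against WT. In GMP it averaged 144 ± 4.46 CPM in KO, 97.4 ± 44.0 in HET and 149.5 ± 32.5 in WT, -0.06 ± 0.58 for KO against WT, or -2.48 (edgeR adjusted p = 0.0133) with spike-in share added to the model, which in GMP nearly coincides with KO. The lowest GMP HET value of Cd48, 14.6 CPM on 5 reads, was that of HET 8, beside a GMP HET median of 100.2 CPM. Pecam1 averaged 58.5 ± 7.98 CPM in KO, 51.5 ± 10.5 in HET and 53.9 ± 14.4 in WT CMP, and 72.7 ± 16.9 in KO, 66.3 ± 17.6 in HET and 56.5 ± 14.97 in WT GMP. The intervals of KO against WT ran from -0.28 to 0.55 in CMP and from -0.52 to 1.24 in GMP.

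KO against HET called 0 of 5 members in CMP beside 2.19% of all genes, 0 of 3 in GMP beside 0.261% and 0 of 5 in MEP beside 0.0171%. In CMP 2 members had an unadjusted p under 0.05, beside 14.5% of all genes. DESeq2 called 2, beside 4.67%, and limma voom 2, beside 5.48%. The 2 with that unadjusted p include Slamf1, which passed the count filter in CMP through its KO libraries. In MEP 4 members had an unadjusted p under 0.05, beside 7.23% of all genes; DESeq2 called 2, beside 1.29%, and limma voom 3, beside 2.81%. In GMP these counts were 0. HET against WT called 0 of 5, 0 of 3 and 0 of 5 in CMP, GMP and MEP, beside 0% of all genes in each. No member had an unadjusted p under 0.05 there, DESeq2 called 0, and limma voom called 0 in CMP and MEP and 1 in GMP, where it called 50.9% of all genes.

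**Figure D4:**
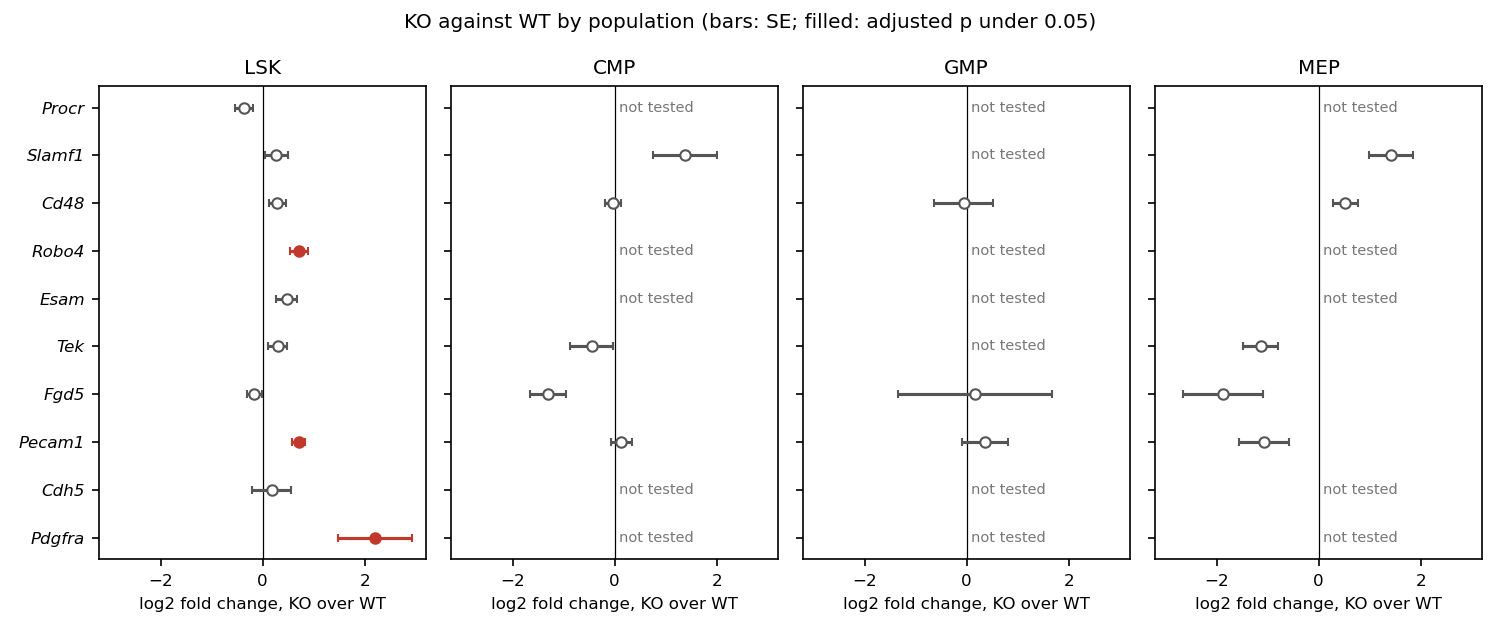
Log2 fold change of KO over WT for each member in LSK, CMP, GMP and MEP, with SE bars; filled points passed an adjusted p of 0.05, open points did not, and members without a point were not listed or did not pass the count filter. Filled points are Robo4, Pecam1 and Pdgfra in LSK, where Pdgfra passed the count filter through its KO and HET libraries. Slamf1 lies to the right in CMP and MEP and Fgd5 to the left. Slamf1 passed the count filter in CMP through its KO libraries, and Fgd5 in MEP through its HET and WT libraries.

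The members that did not pass the count filter had few reads in most libraries. GMP KO 6 held all 142 Esam reads of GMP KO and 73 of its 91 Cdh5 reads, with an endothelial sum of 246 CPM, against 67.6 and 72.0 CPM in the other KO libraries. GMP KO 15 held 27 of the 30 Pdgfra reads. Slamf1 in GMP had 8 reads over 3 KO, 12 over 7 HET and 45 over 3 WT libraries, of which GMP WT 5 held 38. Robo4 had 5 reads in KO, 24 in HET (10 of them in HET 8) and 9 in WT CMP. In MEP Esam had 49 reads over 4 KO, 35 over 7 HET and 24 over 3 WT libraries, and Cdh5 had 11, 17 and 24. None of these passed within its population, so no genotype test of them is given, and single libraries carried most of the reads of Esam, Cdh5 and Pdgfra in GMP KO.

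Between populations, only members that passed the count filter in both populations compared were counted, since a member that passes through 1 population alone is high there by that choice. That left Cd48, Fgd5 and Pecam1 where GMP is compared, and also Slamf1 and Tek for MEP against CMP. In HET, the genotype with 7 libraries per population, GMP against CMP called 1 of 3 beside 5.84% of all genes that passed in both: Cd48 was lower in GMP with -0.86 ± 0.22 (edgeR adjusted p = 0.0157). MEP against CMP called 4 of 5 beside 10.1%: Slamf1 was higher in MEP by 3.15 ± 0.65, and Cd48 (-1.62 ± 0.23), Fgd5 (-2.63 ± 0.69) and Pecam1 (-1.22 ± 0.27) were lower. GMP against MEP called 2 of 3 beside 17%: Pecam1 (1.91 ± 0.27) and Cd48 (0.76 ± 0.22) were higher in GMP. With only the 2 populations in the fit, neither Cd48 call of GMP held (adjusted p = 0.0568 against CMP and 0.0773 against MEP). Without HET 8 every member called in HET was still called. In MEP against CMP, 4 of 7 tested lymphoid genes were also higher in MEP HET and none lower, with a median of 3.68 against 0.03 for all genes. The lymphoid sum was 192 to 1331 CPM in MEP HET and 76.8 to 129 CPM in CMP HET. The part of such cells in the member differences was not tested.

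Slamf1 and Tek did not pass in GMP, and their levels there are given with no test. Slamf1 averaged 2.705 CPM in GMP, 16.3 in MEP and 2.35 in CMP HET libraries, and the median GMP library had 0.236 CPM, while HET 8 reached 17.5 CPM on 6 reads. In WT it averaged 3.89 CPM in GMP, 14.2 in MEP and 2.08 in CMP. Tek averaged 1.73 ± 1.94 CPM in GMP, 7.33 ± 2.25 in MEP and 9.0 ± 4.90 in CMP HET libraries, and 0.479 ± 0.629 CPM in GMP, 9.22 ± 2.63 in MEP and 7.54 ± 0.846 in CMP WT libraries.

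In WT, with 3 libraries per population, GMP against CMP called 0 of 3 beside 1.06% of all genes, with an unadjusted p under 0.05 for 1 member, Fgd5, and 11.5% of all genes, and DESeq2 called 0. MEP against CMP called 1 of 5 beside 3.07%, and GMP against MEP 2 of 3 beside 6.92%. Cd48 was lower in MEP than in CMP (-1.54 ± 0.35) and higher in GMP than in MEP (1.25 ± 0.35), and Pecam1 was higher in GMP than in MEP (1.47 ± 0.41). The Cd48 call in MEP against CMP was lost without MEP WT 12 (adjusted p = 0.0532). In GMP against MEP, leaving out GMP WT 5, GMP WT 12 or MEP WT 12 ended both the Cd48 and the Pecam1 call. Leaving out MEP WT 5 ended the Cd48 call alone (adjusted p = 0.0664) and MEP WT 2 the Pecam1 call alone (adjusted p = 0.108). With only the 2 populations in the fit neither held (adjusted p = 0.104 for Cd48 and 0.0787 for Pecam1).

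A difference between KO effects was tested directly in a joint fit of 11900 genes over all 4 populations, again counting members that passed in both populations compared. For Pecam1 the KO effect in MEP minus that in LSK was -1.79 ± 0.40 on the log2 scale (SE; edgeR adjusted p = 0.0128), and it was the 1 of 5 members called beside 0.569% of all genes. Without MEP WT 5, the WT library with the most Pecam1 and with the highest hepatocyte, lymphoid and macrophage sums, it was -1.25 (adjusted p = 0.458), without MEP KO 13 -1.65 (adjusted p = 0.0501), and with the title series as a block -1.32 (adjusted p = 0.317).

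For the other pairs no member was called. The background was 0.00919% for CMP minus LSK, 5.12% for GMP minus LSK, 1.03% for GMP minus CMP, 0.155% for MEP minus CMP and 2.42% for GMP minus MEP. An unadjusted p under 0.05 was found for 1 of 5 members in MEP minus CMP, beside 6.15% of all genes, for 2 of 3 in GMP minus MEP, beside 13.5%, and for none in the other 3 pairs. The 2 in GMP minus MEP include Fgd5, which passed the count filter in MEP through its HET and WT libraries. DESeq2 called 1 member in GMP minus MEP, beside 4.33% of all genes, and 0 in the others. For Slamf1 the KO effect in CMP minus that in LSK was 1.13 ± 0.82 and in MEP minus that in LSK 1.17 ± 0.75 (edgeR adjusted p = 1.00 and 0.525), so the higher Slamf1 of those KO populations is not shown to differ from LSK.

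**Figure D5:**
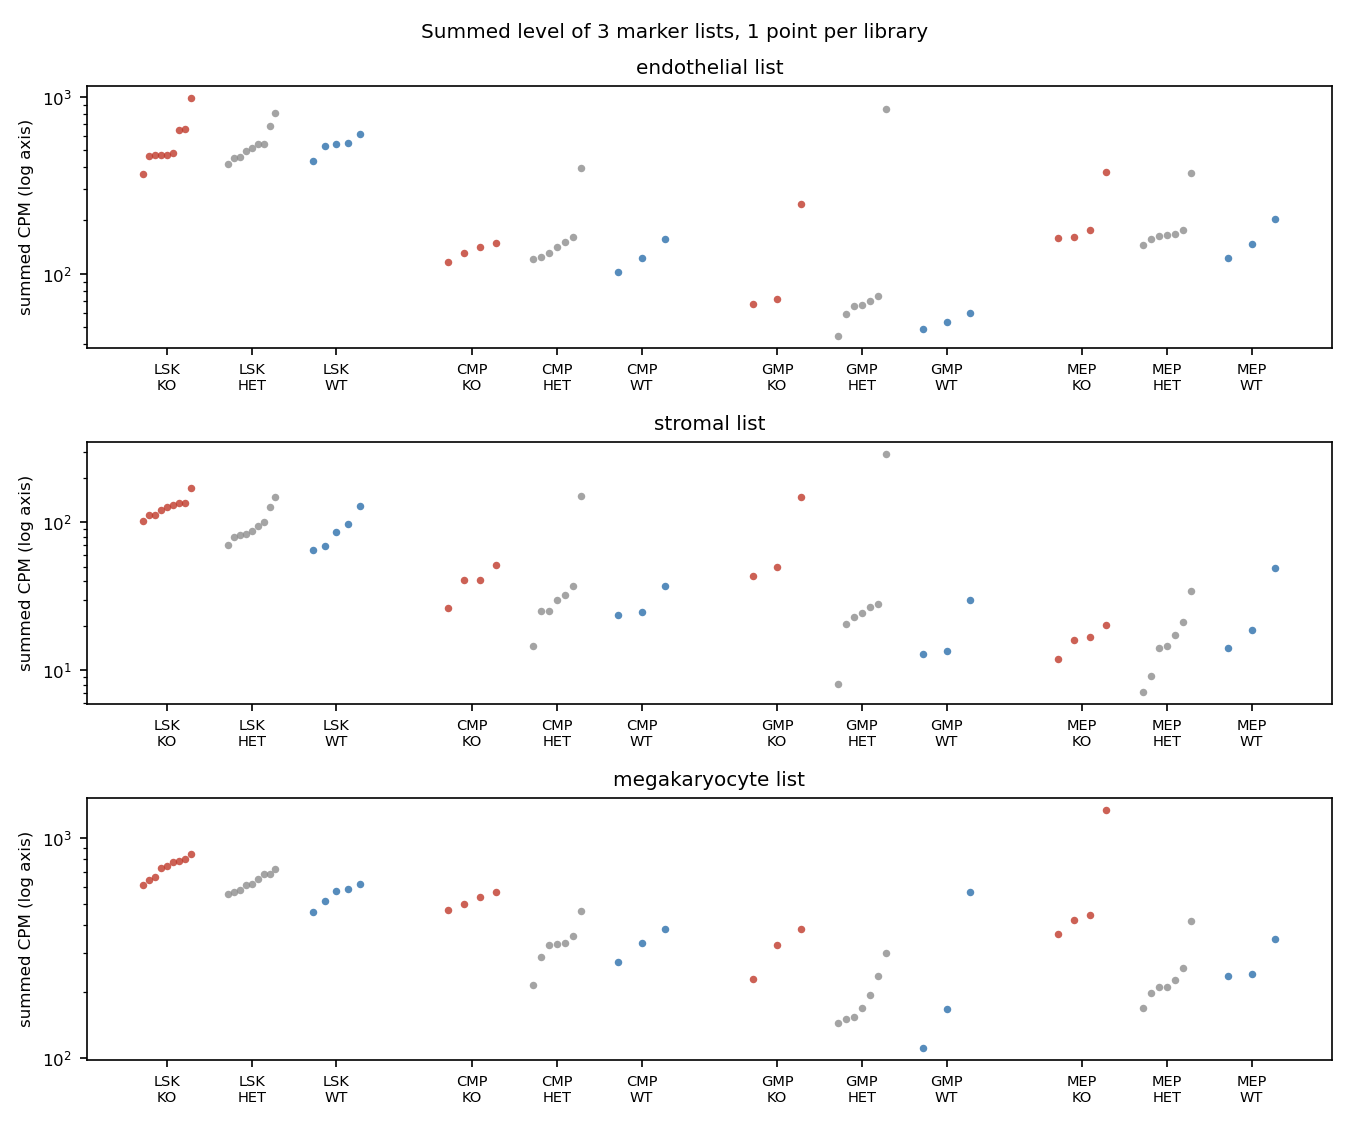
Summed level of the endothelial, stromal and megakaryocyte lists, in CPM on a log axis, with KO, HET and WT side by side in each population; 1 point is 1 library. The highest GMP and CMP points of the endothelial and stromal panels are the HET libraries numbered 8, and the megakaryocyte points of CMP KO and MEP KO lie above those of WT.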

How the data were processed

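The authors deposited whole-number read counts per Ensembl gene, and the submitters' processing notes name featureCounts and the build mm10 (GRCm38). Which aligner, annotation and versions were used is not given in the sources used here. Per the labels' protocols, libraries were made by Smart-seq2 from sorted cells, which marks neither strand nor molecule, so reads are not independent molecules and antisense reads cannot be told apart. Symbols and positions came from GENCODE M21 (GRCm38). Spike-in RNAs stayed out of library sizes and tests, and 0 columns of values were left unused.

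Each population was fitted with its 3 genotypes in edgeR 4.0.16 (R 4.3.3; robust quasi-likelihood, TMM factors, filterByExpr with minimum count 10 and minimum total 15). Populations, and differences between KO effects, were tested in joint fits, read only for genes that passed the filter in each population compared. Calls are Benjamini-Hochberg adjusted p-values under 0.05 over all genes tested. Every adjusted p is from edgeR unless DESeq2 1.42.0 or limma 3.58.1 is named. Levels are CPM of TMM-scaled libraries. The scripts were tested on simulated data.

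The members and lists were chosen with earlier results of these data known. Named were the members, Smarcd2, tested genes annotated between Robo4 and Esam or between Pecam1 and Smarcd2, up to 4 genes per list with the smallest unadjusted p in LSK KO against WT, and up to 3 genes most like each member (Pearson r of log2 CPM, prior count 2, genes with a mean of at least 1). Other list genes and Tma7-ps were named after their values were seen. Alternatives were other scaling (RLE), filters (minimum count 30, or none), samples in the fit (only the 2 groups or 2 populations compared) and tests. The others were the title number as a block, sex in LSK, spike-in share and a transcript length index as covariates, replicate number as a block, and leaving out single libraries. Fits without libraries that stood apart were added after seeing the data. The values of 1 called list gene are not reported here.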

Additional observations from a re-analysis of the deposited data

Results flagged for a closer look

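Of 53 groups of 4 to 10 libraries, 9 held 1 library far from the others, where chance gives about 1 in 20 groups. Of these 9, 4 came from CMP HET 8 and GMP HET 8, whose endothelial sums stood above their groups. Fgd5 had 29.2 CPM in CMP HET 8, with the next library at 13.7 CPM, and 35.1 CPM in GMP HET 8, with the next at 6.00 CPM. In CMP HET 8 Slamf1 had 7.86 CPM (next 2.54) and Tek 19.09 CPM (next 10.02). In MEP KO 15 Slamf1 was lowest at 21.99 CPM, with the next library at 42.8 CPM, and Cd48 was lowest at 80.1 CPM, with the next at 112 CPM. Tek had 10.2 CPM in CMP KO 13 (next 4.545) and 11.6 CPM in MEP HET 9 (next 7.97). Pdgfra had 0.992 CPM in LSK WT 2 of series 19 (next 0.201), on 5 reads.

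The KO effect differed between populations for 1 member by edgeR's test of the difference: Pecam1 had -1.79 (MEP minus LSK) on the log2 scale. The call was lost without MEP WT 5, with a difference of -1.25.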

How the results depend on the processing

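Of log2 fold changes of single members under the alternatives, 952 kept their direction and side of the threshold, 25 lost the call, 26 gained one and 15 changed sign. Of mean levels without TMM factors 103 moved by less than 1 SD and 2 by more, and of correlations without subtracting genotype means 23 stayed within their 95% interval and 7 did not. Of counts of members called, 457 stayed within 1.5 times and 47 did not. Depth limits the low members (Pdgfra, Cdh5, and Slamf1 outside MEP). Single libraries held most reads in some groups, such as Pdgfra in GMP KO and GMP HET, Cdh5 in GMP KO and Slamf1 in GMP WT. None of the 15 changes of sign concerned a called value, and the cause was not tested for any change below.

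KO against WT changed sign as follows. In LSK, Cd48 was -0.017 with spike-in share added, and Cdh5 ran from -0.0077 (without KO 2 of series 22) to 0.54 as single libraries were left out. In CMP with the title number as a block, Cd48 was 0.0244 and Pecam1 -0.00931. Leaving out 1 library there gave Cd48 from -0.105 (without WT 5) to 0.0252 (without WT 2), with 0.00222 without WT 12 and 0.00487 without KO 15, and Pecam1 from -0.0861 (without WT 2) to 0.26. In GMP the same gave Cd48 from -0.219 (without WT 2) to 0.0600 (without WT 12), with 0.0108 without HET 1, 0.00453 without HET 4 and 0.00986 without HET 10. Fgd5 there ran from -0.56 (without KO 6) to 0.67 (without KO 13), with -0.15 without WT 5, and was -0.84 without GMP KO 6, GMP WT 5 and MEP KO 15.

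Counts of members called moved as follows. By DESeq2 they were 2 in LSK KO against HET, 1 in CMP KO against WT, 2 in CMP KO against HET, 2 in MEP KO against HET and 1 for the KO effect in GMP minus MEP. By limma voom they were 2 in CMP KO against WT, 2 in CMP KO against HET, 1 in GMP HET against WT, 4 in MEP KO against WT and 3 in MEP KO against HET. With the length index they were 1 in CMP KO against WT, CMP KO against HET and MEP KO against HET, and with the spike-in share 1 in GMP KO against WT and 1 in GMP KO against HET. With the title number as a block they were 2 in LSK KO against HET and 0 for the KO effect in MEP minus LSK. CMP KO against WT gave 1 with no filter and 2 with only the 2 groups compared. With only the 2 populations compared, GMP against CMP gave 0 in HET, MEP against CMP 2 in WT, and GMP against MEP 1 in HET and 0 in WT. Without HET 8, GMP against CMP gave 2 in HET and MEP against CMP 2 in WT.

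Leaving out each library in turn gave 2 to 4 members in LSK KO against WT, 1 to 2 in LSK KO against HET, and 0 to 2 in CMP KO against WT and CMP KO against HET. In WT it gave 0 to 2 in MEP against CMP and in GMP against MEP. For KO effects it gave 0 to 1 in MEP minus LSK and in GMP minus MEP. The other comparisons so tested stayed at 0.

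CMP, GMP and MEP share replicate numbers, which the labels do not tie to a fetus. Same-numbered libraries correlated from -0.0708 to 0.694 between GMP and CMP, -0.453 to 0.412 between GMP and MEP and -0.0822 to 0.451 between MEP and CMP, and best with their own number in 5 of 13, 2 of 13 and 4 of 14 pairs, so the numbers were not used as pairs. With the replicate number as a block, members called in HET were 1 in GMP against CMP, 4 in MEP against CMP and 1 in GMP against MEP, where Cd48 had 0.69 (adjusted p = 0.0585), and in WT 0, 1 and 2.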
